A study of Mus musculus with 4 samples.

Results

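Blnk, Cyth4, Arap3, Laptm5 and Tgm2 are 5 signalling genes that were chosen by their array intensity: bright in STAT3KO cells, with little or no signal in WT cells. All probes that the platform's annotation assigns to these symbols were followed on every array, which gave 10 of the 46632 probes and 5 of the 17708 named genes. The cells were C57BL/6 MEFs, that is, embryonic fibroblasts of the mouse kept in culture. They were either WT or STAT3KO, a knockout of the gene for the transcription factor STAT3, and were left untreated or received 1000 U/ml of IFNa, an antiviral cytokine of the type I interferons, for 2 h. The 4 groups so formed had 1 Illumina bead array each, hybridised with total RNA. The labels do not say which part of Stat3 was deleted, how the deletion was made, or whether a genotype was more than 1 line.

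Each of the 5 proteins works in a known branch of signalling or protein turnover. BLNK is the adaptor that the kinase Syk phosphorylates beneath the B cell receptor, where it gathers Btk, Vav proteins and phospholipase C. CYTH4, a cytohesin best known from blood cells, loads GTP onto Arf proteins, small GTPases of membrane traffic, and ARAP3 acts in the opposite sense as a phosphoinositide-activated GTPase-activating protein for Arf and other small GTPases that Rap binds. LAPTM5 is a lysosomal membrane protein of blood cells that binds Nedd4-type ubiquitin ligases and directs antigen receptors to lysosomes. TGM2, tissue transglutaminase, cross-links proteins in the presence of calcium, binds GTP, and assists integrins in binding fibronectin.

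The arrays detected between 16076 and 17524 probes at a detection p under 0.01. The deposited intensities of the WT untreated array, with a median of 75, were the same as the authors' normalized ones. The other arrays had deposited medians between 77.4 and 96.7. Values below are background-corrected, quantile-normalized log2 intensities unless another scale is named, and where a pair of values is given for a genotype, the untreated array comes first and the IFNa array second. Stat3 stood at 10.75 and 11.01 in the WT arrays and at 6.56 and 6.16 in the STAT3KO arrays on its brighter probe, and both of its probes were still detected in STAT3KO. With 1 array a group there is no spread between replicates, so a difference between single arrays is a value with no test. The limma tests below join arrays across treatments or genotypes, and their p-values hold no spread between replicate samples. The members were chosen for their genotype difference, which is described here without a test, and in such bulk samples fewer cells expressing a gene and less RNA per cell cannot be told apart.

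Blnk was present at a low level in WT and far brighter in STAT3KO. Its brighter probe (ILMN_1253725) had a log2 intensity of 5.50 and 5.92 in WT and of 12.29 and 12.02 in STAT3KO. Both STAT3KO arrays lay far above both WT arrays, and the probe was detected on all 4, with a detection p of 0.00194 in WT untreated. The STAT3KO signal was 111-fold that of WT without IFNa and 68.2-fold with it. The second probe (ILMN_2726931) read 4.44 and 4.47 in WT, where it was not detected, and 7.67 and 7.70 in STAT3KO, at least 4.84-fold higher without IFNa and 5.39-fold with it, both as lower bounds. Blnk was thus not silent in WT by its brighter probe, and both of its probes separated the genotypes in both treatments.

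Cyth4 separated the genotypes on 1 of its 3 probes. The brightest probe (ILMN_2416628) had 4.77 and 5.07 in WT, not detected, and 10.85 and 10.92 in STAT3KO. That is at least 43.9-fold higher in STAT3KO without IFNa and at least 49.9-fold with it. A second probe, also designed on a RefSeq record (ILMN_1251229), gave 5.35 and 5.42 in WT and 5.58 and 5.91 in STAT3KO. It was detected on every array except WT untreated, and with IFNa the STAT3KO signal was 1.40-fold that of WT. The third probe (ILMN_1232365), designed on a GenBank cDNA, was detected on no array, at 4.30 to 4.40. So 2 probes of Cyth4, both designed on RefSeq records, gave differences of 5.96 and 0.36 (log2, mean of both treatments).

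Arap3 was not detected in WT on either of its 2 probes and was bright in STAT3KO on 1 of them. Its brighter probe (ILMN_1243107) had 4.90 and 5.06 in WT and 11.79 and 11.58 in STAT3KO. STAT3KO was at least 84.3-fold higher without IFNa and at least 79.1-fold higher with it. The other probe (ILMN_1218733), on a GenBank cDNA, read 4.67 and 4.59 in WT and 5.66 and 5.25 in STAT3KO and was detected in STAT3KO untreated alone, at least 1.20-fold above WT untreated. Its direction was the same as that of the brighter probe, at a small part of the size.

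Laptm5 was the dimmest change of the 5 and was measured by a single probe (ILMN_1217849). The log2 intensity was 4.49 and 4.52 in WT, not detected on either array, and 7.29 and 6.53 in STAT3KO. STAT3KO was at least 3.73-fold higher without IFNa and at least 2.40-fold higher with it. Its STAT3KO values lay below those of the other members, which were 10.85 or above on their brightest probes.

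Tgm2 was not detected in WT on either probe. The brighter probe (ILMN_2692615) had 4.55 and 4.81 in WT and 11.24 and 10.97 in STAT3KO, at least 57.8-fold higher without IFNa and at least 51.9-fold higher with it. The other probe (ILMN_1250031), again on a GenBank cDNA, stayed between 4.31 and 4.42 and was detected on no array. As with Cyth4, the gain rested on a single responding probe.

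**Figure D1:**
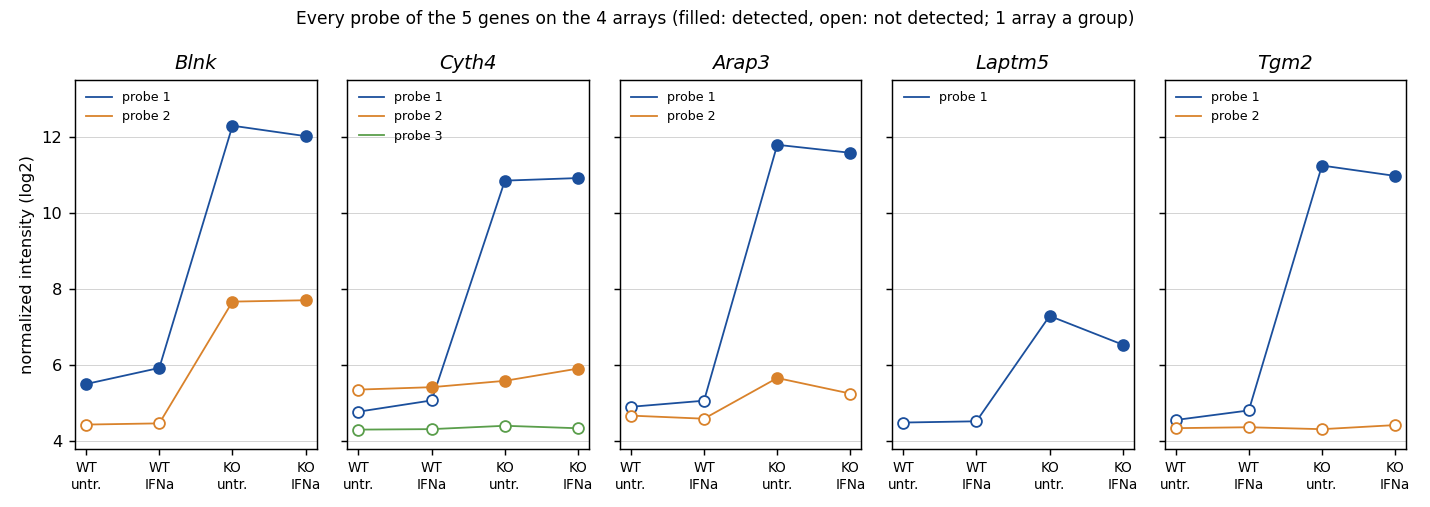
Normalized log2 intensity (vertical axis) of every probe of the 5 genes on the 4 arrays (horizontal axis, KO for STAT3KO, untr. for untreated), with filled points for detected and open points for undetected values; lines join the values of 1 probe. The brightest probes of Blnk, Cyth4, Arap3 and Tgm2 are at 10.85 or above on the STAT3KO arrays and at 5.92 or below on the WT arrays, while most second probes stay below 6.

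Over the 5 genes the median genotype difference on the brightest probe was 6.43 (log2), against 0.02 over all 10515 genes, as the choice of members fixes. Over all genes, 12.5% were at least 2-fold higher in STAT3KO without IFNa and 10.3% with it. The size of these differences depended on background subtraction. In the authors' normalized intensities, which keep the background, Blnk was at 90.7 and 102.6 in WT and at 3336.3 and 2748.2 in STAT3KO. That is a ratio of 36.8 without IFNa and 26.8 with it. The same ratios were 29.4 and 24.3 for Arap3, 22.5 and 17.0 for Tgm2, 15.9 and 15.4 for Cyth4, and 2.32 and 1.77 for Laptm5. The 2 IFNa arrays alone, as deposited before normalization, gave ratios of 21.4 for Blnk, 20.6 for Arap3, 14.9 for Tgm2, 13.2 for Cyth4 and 1.47 for Laptm5. The order of the 5 genes by ratio was the same in these sets of values, and the gains of Blnk, Arap3, Tgm2 and Cyth4 did not rest on the WT untreated array.

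Agreement between probes was limited. Of the 10 probes, 7 were detected on both STAT3KO arrays, 6 of these were at least 2-fold higher in STAT3KO in both treatments, and 2 were detected on no array. Of the 4 members with more than 1 probe, 1, Blnk, had another probe that was also at least 2-fold higher in both treatments. The same share was low across the arrays. Among 443 genes with several probes whose brightest probe was at least 2-fold higher in STAT3KO in both treatments, 25.3% had another such probe. The members' count is therefore near that background. Probe sequences were not used here, so where each probe lies in its transcript is not stated.

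Promoter sequence shows what the genes share before transcription starts, and RefSeq windows (GRCm38.p6, 250 bases before to 50 bases after the start) were at hand for Laptm5, Cyth4 and Blnk. The windows were searched on both strands for TTCNNNGAA, the palindromic site type bound by STAT factors, the core of the interferon response element, by its name, GAGGAAGT, the site type of the blood-cell factor PU.1, TGTGGTT, the RUNX site type, and TATAAA. The 3 windows are shown 5′ to 3′ on the gene's strand, with matches in capitals.
Laptm5 promoter, chr4:130913066-130913365, plus strand: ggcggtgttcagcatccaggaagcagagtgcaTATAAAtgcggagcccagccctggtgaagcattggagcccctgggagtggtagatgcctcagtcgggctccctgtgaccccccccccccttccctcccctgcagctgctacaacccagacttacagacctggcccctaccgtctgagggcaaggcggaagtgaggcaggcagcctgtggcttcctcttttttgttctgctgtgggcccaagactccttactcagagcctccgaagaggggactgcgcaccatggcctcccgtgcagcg
Cyth4 promoter, chr15:78596797-78597096, plus strand: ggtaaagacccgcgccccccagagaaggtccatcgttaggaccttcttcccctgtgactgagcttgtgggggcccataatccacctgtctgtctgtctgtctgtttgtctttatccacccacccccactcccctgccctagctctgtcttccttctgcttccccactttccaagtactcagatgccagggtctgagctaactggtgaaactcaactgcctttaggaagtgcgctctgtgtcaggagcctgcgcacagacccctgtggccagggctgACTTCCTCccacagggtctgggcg
Blnk promoter, chr19:40994172-40994471, minus strand: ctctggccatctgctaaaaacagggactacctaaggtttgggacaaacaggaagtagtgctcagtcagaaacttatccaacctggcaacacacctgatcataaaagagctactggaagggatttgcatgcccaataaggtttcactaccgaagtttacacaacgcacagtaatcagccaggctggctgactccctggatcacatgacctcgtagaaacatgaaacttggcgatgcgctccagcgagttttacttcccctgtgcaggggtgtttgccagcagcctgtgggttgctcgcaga
The Laptm5 window held TATAAA, its first base at position -218 from the start, and the Cyth4 window held GAGGAAGT on the opposite strand, beginning 27 bases after the start. No match to any of the 5 motifs was found in the Blnk window, and none of the 3 held TTCNNNGAA or the interferon response element core. Across 32851 RefSeq windows of the same length, 8.30% held TTCNNNGAA, 3.44% the interferon response element core, 3.2% GAGGAAGT, 5.27% TGTGGTT and 13.6% TATAAA. The GC content was 62.3% for Laptm5, 58% for Cyth4 and 50% for Blnk, against a median of 52.7%. No motif was shared by 2 of the 3 windows.

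The response to IFNa was not used to choose the genes, and it was tested. None of the 5 genes passed the limma test of the mean response over both genotypes (genotype plus treatment, Benjamini-Hochberg over 10515 genes, adjusted p under 0.05), and none had an unadjusted p under 0.05. Over all genes 1.09% passed, 93 (0.884%) higher and 22 (0.209%) lower with IFNa, and 467 had an unadjusted p under 0.05. The mean log2 response was 0.07 ± 0.17 (limma SE) for Blnk, 0.18 ± 0.21 for Cyth4, -0.02 ± 0.19 for Arap3, -0.36 ± 0.39 for Laptm5 and -0.01 ± 0.21 for Tgm2. These fits have 1 residual degree of freedom and borrow most of their spread from other genes, and they do not show that the genes are insensitive to IFNa.

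Within STAT3KO, where the brightest probes were detected, IFNa minus untreated was -0.27 for Blnk, 0.07 for Cyth4, -0.21 for Arap3, -0.76 for Laptm5 and -0.27 for Tgm2 (log2). No member passed 2-fold in these values, a size reached in either direction by 2.18% of 9904 genes in that comparison. The second Blnk probe gave 0.04 and the second Cyth4 probe 0.32, so these small differences were not the same on all probes. In WT the differences were 0.42, 0.30, 0.16, 0.03 and 0.25 in the same order of genes, but Blnk alone was detected there, and its values, 5.50 and 5.92, were close to the lowest detected level of these arrays (5.39 and 5.27). Blnk did not pass 2-fold in WT, where 1.33% of the 9716 genes detected there did. The signs in the 2 genotypes were opposite for 4 of the 5 genes, a background share of 56.2% over all genes. The high level in STAT3KO was thus present before treatment and was within 2-fold of that level after 2 h of IFNa.

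**Figure D2:**
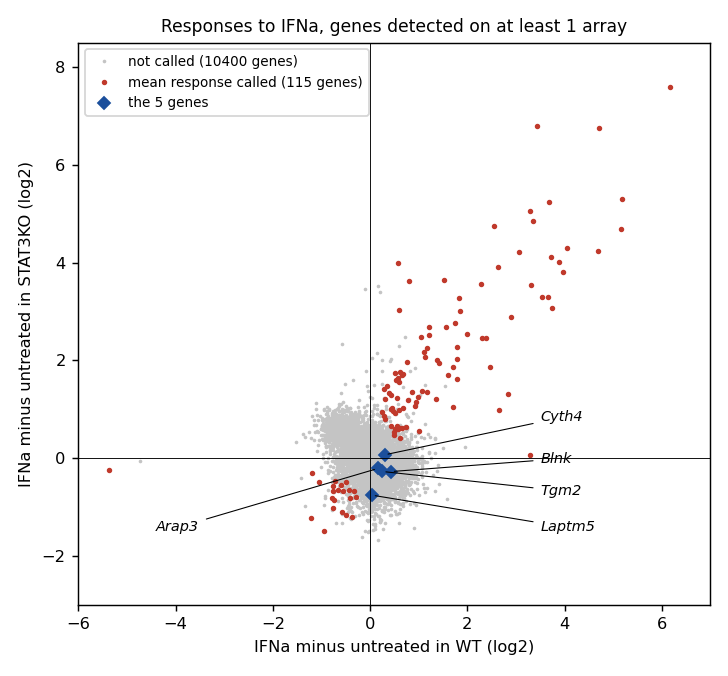
IFNa minus untreated in WT (horizontal axis, log2) against the same difference in STAT3KO (vertical axis, log2) for 10515 genes, with the 115 genes whose mean response passed the limma test in red and the 5 members as blue diamonds. The members lie within the cloud of genes that did not pass, between -0.76 and 0.07 in STAT3KO.

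To place Blnk among its partners, 34 other genes of B cell receptor and Syk adaptor signalling were examined. This list, like those below, was chosen with earlier results of these data known. Its shares may therefore not be independent of the genotype differences. Of the listed genes 31 had a probe and 15 were detected on at least 1 array. Of those 15, 8 were higher in STAT3KO by the limma test over both treatments, 1 was lower and 6 did not pass, with a median genotype difference of 1.28 (log2). Over all genes 23% were called higher and 19.8% lower. These genotype calls, here and below, use the untreated and IFNa arrays of each genotype as if they were replicates. Their p-values hold no spread between separate cultures of a genotype. The largest rises were Ptpn6, the phosphatase SHP-1 of blood cells, Lat2, a membrane adaptor that Syk-type kinases phosphorylate, Rasgrp3, an activator of Ras, and Prkcb, protein kinase C beta. Ptpn6 went from 5.10 and 4.97 in WT, undetected, to 9.85 and 10.06 in STAT3KO, at least 22.0-fold higher without IFNa (limma adjusted p = 3.83e-15). Lat2 went from 6.66 and 6.29 to 10.71 and 11.05, detected on all arrays and 16.5-fold and 26.9-fold higher (limma adjusted p = 2.55e-16). A second probe of Lat2 was detected on no array.

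Rasgrp3 rose from 4.47 and 4.85 to 8.68 and 8.71, and its other probe was detected on no array. Prkcb rose from 4.47 and 4.28 to 7.78 and 7.36, and a second of its 3 probes moved the same way, by 2.55 (log2) on average. Vav2, Vav3, the pleckstrin-homology adaptor Dapp1 and the adaptor Nck2 were the other genes that rose, by 1.53, 2.12, 2.54 and 1.28, and the call of Vav2 was lost with the mean of all probes (limma adjusted p = 0.201). A second probe of Vav3, detected on all 4 arrays, gave a difference of only 0.24, and a second probe of Dapp1 gave 1.22. Nfatc1, a calcium-dependent transcription factor, was the gene that was lower, at -2.56. Since 3 of the 8 were detected in STAT3KO alone, the filter on detection admitted them through the group in which they are bright. Among the 11 genes detected on all 4 arrays 5 were higher and 1 lower, against 25.6% and 21.3% of all such genes. Syk, Btk, Cd79a, Cd79b and Vav1, all of the core of the pathway, and Lcp2 and Clnk, the other adaptors of the BLNK family, were not detected on any array. Plcg2, the phospholipase C that BLNK binds, was detected on all 4 arrays, at 5.68 and 6.42 in WT and 5.83 and 5.94 in STAT3KO (limma adjusted p = 0.781). The adaptor Grb2 and the phosphoinositide 3-kinase subunit Pik3r1 were likewise detected on all 4 and did not pass the test.

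The other cytohesins did not follow Cyth4 in size. Cyth1 rose from 5.86 and 6.31 in WT to 7.47 and 7.57 in STAT3KO, a difference of 1.44 ± 0.28 (limma SE, adjusted p = 0.000172), and Cyth2 rose by 1.12 ± 0.34 (limma adjusted p = 0.00913). Cyth3, detected on all arrays, fell from 12.39 and 12.69 to 11.23 and 11.07 (-1.39 ± 0.13, limma adjusted p = 1.43e-09). The call of Cyth1 was lost with the mean of its 3 probes (limma adjusted p = 0.230), 2 of which were detected on no array, and that of Cyth2 with no filter on detection (limma adjusted p = 0.0910). Of 14 detected genes among cytohesins, other Arf exchange factors and Arf proteins, 4 (28.6%) were higher and 2 lower, with a median difference of 0.09, against 23% and 19.8% over all genes. Among the 12 detected on all 4 arrays 3 were higher, against 25.6% of all such genes. Cytip, a protein that binds cytohesins in blood cells, went from an undetected 4.77 and 4.64 to 7.29 and 6.71 and was the largest rise. Arf2 was lower by a difference of -1.21.

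Among Arf GTPase-activating proteins and their partners, 6 of 23 detected genes were higher in STAT3KO and 7 lower, with a median difference of 0.09, against 23% and 19.8% over all genes. These counts were 2 and 2 on 75th-percentile scaling, 3 and 3 with the mean of all probes, and 2 and 4 without the intensity trend. The largest rise after Arap3 itself was Acap1, an Arf6-directed GTPase-activating protein, at 5.55 and 4.99 in WT and 10.24 and 10.00 in STAT3KO (25.9-fold without IFNa, at least 26.5-fold with it, limma adjusted p = 1.54e-15). Asap2 rose from 8.05 and 8.01 to 10.54 and 10.53, and a second probe gave a difference of 2.48 against 2.50 on the brightest. Rhob, a stress-induced small GTPase, and Rap2a were lower, at -1.98 and -1.28. The other probe of Rap2a, detected on all 4 arrays, gave -0.31. The paralog Arap1 was detected on 1 array by its brightest probe and had a difference of -0.15 ± 0.48 (limma adjusted p = 0.857).

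The LAPTM family showed a smaller shift than Laptm5. Laptm4b rose from 8.43 and 8.57 in WT to 9.68 and 9.71 in STAT3KO (1.19 ± 0.15, limma adjusted p = 4.46e-07), and Laptm4a had a difference of -0.11 ± 0.14 (limma adjusted p = 0.590). The call of Laptm4b was lost with scaling to the 75th percentile (limma adjusted p = 0.0994) and with the mean of its 2 probes (limma adjusted p = 0.0567). Of 17 detected genes of this family and of lysosomal sorting, 5 were higher and 5 lower, with a median of -0.11, against 23% and 19.8% over all genes. There were 0 higher and 2 lower on 75th-percentile scaling, 1 and 4 with the mean of all probes, and 1 and 2 without the intensity trend. Lamp1, the abundant lysosomal membrane glycoprotein, and the protease Ctsb were lower, at -1.02 and -0.75. Gga1, a sorting adaptor, was 0.68 higher (limma adjusted p = 0.0406), a call that 6 of 10 alternative settings did not keep.

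Of 13 detected transglutaminases and partners of TGM2, 2 were higher and 7 lower in STAT3KO, with a median of -0.59, against 23% and 19.8% over all genes. Itga5, the fibronectin receptor subunit that works with TGM2, fell from 9.36 and 9.30 to 7.41 and 6.56 (-2.34 ± 0.21, limma adjusted p = 8.15e-10). Tgfb2, the transcription factor gene Cebpb and the phospholipase gene Plcd1 were lower too, at -2.08, -1.93 and -1.53, while the cytokine gene Tgfb1 and Mfge8, which bridges dying cells to integrins, were 1.09 and 1.02 higher. Tgm1 was detected in WT IFNa alone, at 5.87, and did not pass the test (limma adjusted p = 0.322), and Tgm3, Tgm4, Tgm5 and Tgm6 were detected on no array. Of the transglutaminase genes with a probe, Tgm2 was the one detected in STAT3KO. Scaling to the 75th percentile ended the calls of Nck2, Lamp1, Arf2 and Mfge8 (limma adjusted p = 0.176, 0.0718, 0.209 and 0.186). For the mean response to IFNa, none of the genes in the 5 lists passed, where 1.09% of all genes did.

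**Figure D3:**
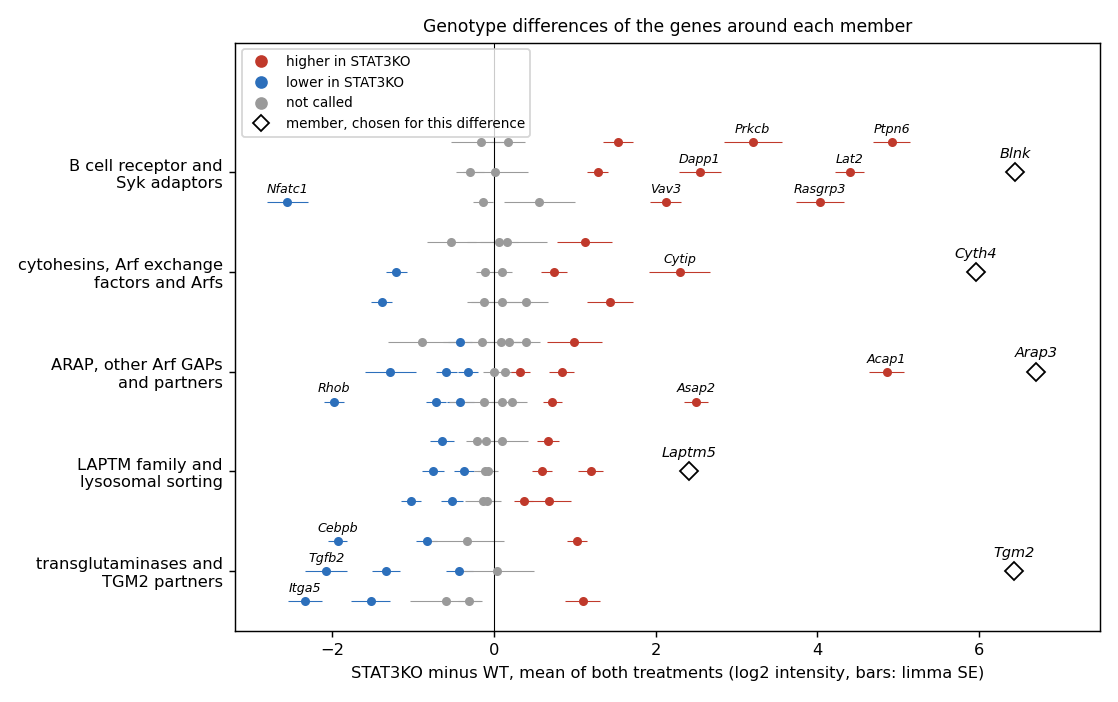
STAT3KO minus WT over both treatments (horizontal axis, log2, bars are the limma SE) for every detected gene of the 5 lists, in red where higher, blue where lower and grey where the test was not passed; diamonds are the members, which were chosen for this difference, and the vertical offset within a list has no meaning. Genes of the B cell receptor list reach 4.92 (Ptpn6), and those around Tgm2 lie mostly below 0.

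Several of these genes are best known from blood cells, so markers of other cell types were followed on the same arrays. Of 10 pan-leukocyte markers 7 were detected on no array, among them Ptprc, the leukocyte common antigen, Lcp1 and Was. Their summed linear intensity was 452 and 500 in WT and 305 and 302 in STAT3KO, and that drop was Cd53 alone: without it the sums were 283 and 284 in WT and 284 and 279 in STAT3KO. Undetected markers enter the sums here and below at background level. Cd53 was lower by the limma test, at 7.41 and 7.76 in WT and undetected in STAT3KO. Coro1a and Ikzf1 were detected on all 4 arrays and did not pass, with differences of 0.35 and -0.28, and none of the 10 was called higher.

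Of 9 B cell markers 7 were detected on no array, including Cd79a, Cd79b, Pax5 and Cd22. Their sum was 639 and 529 in WT and 262 and 274 in STAT3KO, and without Ebf1, which fell from 8.70 and 8.36 to 5.78 and 5.65, it was 222 and 200 against 207 and 223. Ms4a1 was detected on 3 arrays, among them STAT3KO IFNa, and did not pass. Of 8 myeloid markers 6 were detected on no array, among them Itgam, Tyrobp and Fcer1g. The sum, which includes these 6 at background level, was 397 and 401 in WT and 489 and 457 in STAT3KO. Cd14 and Spi1, the gene of PU.1, were detected on all 4 arrays and did not pass, with differences of 0.27 and 0.61 (limma adjusted p = 0.346 and 0.197). All 5 T cell markers with a probe were undetected. The part of these markers in the gain of the 5 genes was not tested.

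Endothelial markers, followed because Arap3 is known from endothelium, gave sums of 2507 and 2460 in WT and 1334 and 1149 in STAT3KO. Flt1, which was lower (-1.45), carried that drop: without it the sums were 389 and 410 in WT and 489 and 464 in STAT3KO. Pecam1, Tek and Tie1 were detected on no array, and Eng and Vwf had differences of 0.69 and 0.84 without passing. Emcn was called higher (1.10, limma adjusted p = 0.0395), but it was detected in STAT3KO alone, a second probe gave -0.45, and both the mean of all probes and 75th-percentile scaling ended the call. Epithelial markers summed to 1335 and 941 in WT and 898 and 696 in STAT3KO, and without Krt19, which was lower (-0.72), to 193 and 160 against 229 and 203. Cdh1 and Epcam were undetected. Scaling to the 75th percentile also ended the calls of Flt1 and Krt19.

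Of 13 detected fibroblast markers 9 were lower in STAT3KO and none higher, with a median difference of -3.47, against 19.8% lower and 23% higher over all genes. Their sum was 99430 and 91087 in WT and 51462 and 57478 in STAT3KO. Thy1 went from 13.96 and 14.20 to undetected, while Vim, the mesenchymal intermediate filament, was at 15.29 and 15.12 in WT and 15.11 and 15.26 in STAT3KO. Without Vim the sums were 59458 and 55363 against 16108 and 18210. A probe can also fail: Rhoa and Ctsl, which fibroblasts ordinarily express, were detected on no array either.

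**Figure D4:**
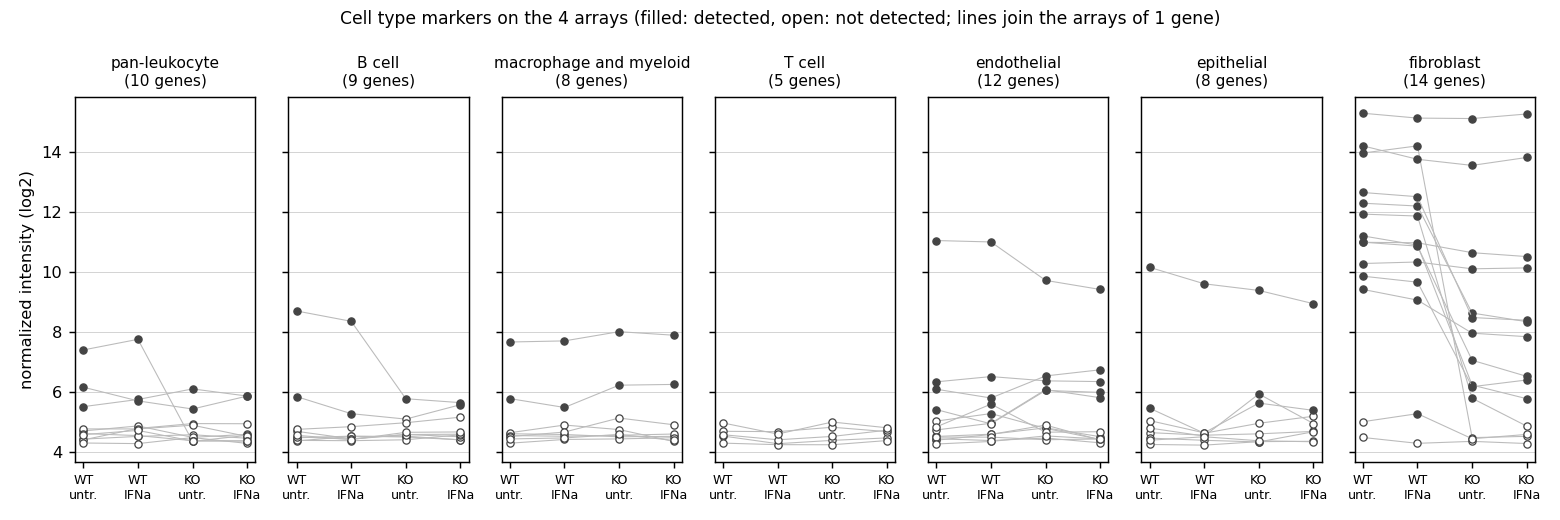
Normalized log2 intensity (vertical axis) of the markers of 7 cell types on the 4 arrays (horizontal axis), brightest probe per gene, filled where detected and open where not. Most blood-cell markers lie near the lowest values on all arrays, and several fibroblast markers drop between the WT and STAT3KO arrays.

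The members resembled each other to different degrees. Between profiles of the 4 arrays, each centred on its own mean, the Euclidean distance was 0.12 for Blnk and Tgm2, 0.29 for Arap3 and Tgm2, and 0.32 for Blnk and Arap3. Cyth4 lay 0.53 to 0.77 from these, and Laptm5 lay at least 3.60 from every other member. Likeness among the members follows in part from their choice by the genotype difference. The WT values in these profiles were undetected for all members but Blnk. Among 8798 other genes detected on both STAT3KO arrays, the 3 nearest to Blnk, to Arap3 and to Tgm2 were in each case Scx, Hspb8 and Mgmt. Scx, a tendon transcription factor, was nearest to Tgm2 at 0.16, with 5.03 and 5.29 in WT and 11.59 and 11.54 in STAT3KO. Hspb8, a small heat shock protein, had 5.67 and 5.55 against 12.11 and 12.07, and Mgmt, a DNA repair methyltransferase, had 4.66 and 4.65 against 11.04 and 10.76.

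Nearest to Cyth4 were 2610318N02Rik at 0.23, the muscle ubiquitin ligase gene Trim54 at 0.32 and Raet1d, a ligand of an activating natural killer cell receptor, at 0.38. Nearest to Laptm5 were the granulocyte growth factor gene Csf3 at 0.08, Trim71 at 0.15 and the transporter gene Abcc3 at 0.19. All these gains rested on single probes. Scx, Hspb8, Trim54 and Abcc3 had 1 probe each. For Mgmt, 2610318N02Rik, Raet1d, Csf3 and Trim71, no other probe was detected and at least 2-fold higher in STAT3KO in both treatments. Csf3 had 4.84 and 4.87 in WT, not detected, and 7.57 and 6.80 in STAT3KO, a difference of -0.77 with IFNa in STAT3KO beside -0.76 for Laptm5, which was not detected in WT either. Likeness over 4 arrays of 2 genotypes rests almost wholly on the genotype step, and many genes share it: 842 genes, or 8.01% of those tested, were at least 2-fold higher in STAT3KO in both treatments and detected there.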

How the data were processed

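Total RNA of 4 MEF samples was measured on Illumina mouse bead arrays, 1 per group, so precision is limited by that number. The submitters' processing notes name BeadStudio 3.2.3. Per the file headers, the deposited values are a linear intensity and a detection score for each probe. The deposited intensities of the WT untreated array are identical to its normalized ones, and the column labels do not say why. The authors also deposited normalized intensities of all arrays, which have a median of 75.0 each. Their scale is linear, their centring and direction need no change, and the normalization is a method not given in the sources used here, which cover labels, headers and notes. The detection p was taken as 1 minus the score, with detection under 0.01.

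Background correction (normexp from the detection p, offset 16), quantile normalization and the log2 scale came from limma 3.58.1, run in R 4.3.3. Symbols came from the platform annotation (29976 probes with 1 symbol, 10 with several, 16646 with none), updated through the RefSeq table of assembly GRCm38.p6 by Entrez ID for 29921 probes and by accession for 12, while 43 kept the platform's symbol. The probe with the highest mean stood for a gene. Folds against an undetected value are lower bounds, written "at least": the bright value is set against the dim array's lowest detected probe, or against the probe's own value there if that is higher. The limma fit (genotype plus treatment, eBayes with intensity trend) covered the 10515 genes that any array detected, had 1 residual degree of freedom beside 23.1 prior ones, and was tested on simulated data. Its p-values hold no spread between replicate samples.

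The members and gene lists were chosen with earlier results of these data known. Named genes are the members, their paralogs, up to 4 detected genes with the largest absolute genotype difference in each list, genes needed to describe a list, markers, and the 3 nearest profiles per member. Of the paralogs and listed genes, those with no probe under that name, among them Lyn, Arap2, F13a1 and Tgm7, are not analysed here. Neighbouring genes were taken from the RefSeq order afterwards. Protein alignments planned for the families were not run. Alternatives were other background, normalization, probe, detection and variance settings.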

Additional observations from a re-analysis of the deposited data

Results flagged for a closer look

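For 4 members, IFNa minus untreated was above 0 in WT and below 0 in STAT3KO, each from single arrays. The response in STAT3KO minus that in WT (log2, brightest probe) was -0.70 for Blnk, -0.37 for Arap3, -0.79 for Laptm5 and -0.52 for Tgm2. The difference was not tested, since no residual degrees of freedom are left for it. Opposite signs occurred in 56.2% of the 10515 genes, Arap3, Laptm5 and Tgm2 were not detected in WT, and the second Blnk probe gave a difference of 0.00. With cyclic loess the difference was -0.069 for Blnk, 0.15 for Tgm2 and 0.31 for Arap3. The difference of Laptm5 kept its sign in all 6 alternatives. It was larger in size with cyclic loess than the -0.79 above, and smallest, at -0.35, in the authors' normalized values.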

How the results depend on the processing

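No paired analysis was possible because each group holds 1 array and so shares no 2 replicate numbers with another; the limma fit itself compares genotypes within each treatment. No array could be left out with a test. The median genotype difference of the 5 genes, 6.43 (log2), was 4.76 with no background correction, 5.23 with offset 50, 4.02 with the authors' normalized values and 3.22 with the mean of all probes. The median difference of their responses, -0.52, was 0.15 with cyclic loess. No member was called for its IFNa response under any of the 10 alternatives that tested it, 4 members being untested among genes detected on all arrays. Mean responses near 0 changed sign: that of Blnk was -0.039 with no background correction, -0.0083 with offset 50, -0.089 with scaling to the 75th percentile, -0.17 under cyclic loess and -0.063 in the authors' values. That of Cyth4 was -0.18 with cyclic loess and -0.12 when scaled to the 75th percentile, and that of Tgm2 0.028 with the mean of all probes. The difference of Arap1 was 0.10 with the mean of all probes. Of the 82 tested genes of the 5 lists, 25 were higher and 22 lower, against 13 and 12 on 75th-percentile scaling, while the mean of all probes gave 16 higher. At 2-fold, 17 of them were higher in STAT3KO without IFNa, and 14 on the IFNa arrays alone, a setting added after the data were seen. Over all genes, 1279 were 2-fold higher in STAT3KO without IFNa and 1030 with it. These were 752 and 664 with no background correction and 603 and 520 with the authors' values. The 81 genes 2-fold lower with IFNa in STAT3KO became 5 with no background correction, 6 with offset 50, 44 with scaling to the 75th percentile, 3 with the authors' values and 49 with the mean of all probes. The mean IFNa response called 93 genes higher and 22 lower, against 43 and 3 on 75th-percentile scaling, 15 and 0 with the mean of all probes, and 0 of either without the intensity trend, where 286 had an unadjusted p under 0.05. With no background correction it called 40 lower. The causes were not tested. Values of undetected probes, most WT values of the members among them, are limits of background and not levels.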

Other observations

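The chromosomal neighbours of the members were looked at after the other results were known. The members lie on 5 different chromosomes, and the 2 protein-coding genes on either side of each give 20 neighbours, of which 19 had a probe and 6 were detected. Of these 6, 4 were higher in STAT3KO by the limma test, none was lower and 2 did not pass, where 23% of all genes were higher. The 3 detected neighbours of Arap3 were all among the 4: Fchsd1 (0.89 ± 0.27, limma adjusted p = 0.00930), Pcdh1, a protocadherin gene (1.28 ± 0.37, adjusted p = 0.00665), and Dele1 (1.06 ± 0.18, adjusted p = 2.69e-05). Dele1 encodes a relay of mitochondrial stress, and it had 7.87 on both WT arrays and 8.95 and 8.90 in STAT3KO. Tti1, near Tgm2, was 0.68 ± 0.21 higher (adjusted p = 0.00874). Rprd1b, also near Tgm2, and Sdc3, next to Laptm5, had differences of 0.15 and 0.05. The neighbours were not run through the alternative settings. No neighbour of Blnk or Cyth4 was detected, including Rac2, which lies beside Cyth4 and is itself a gene of blood cells.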
